A study of Mus musculus with 4 samples.

Results

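The integrated stress response is represented here by 10 genes: Atf4, Atf3, Ddit3, Trib3, Sesn2, Ddit4, Chac1, Slc7a11, Asns and Psat1. They were taken by Ensembl ID from the 53465 IDs of the count table, and all 10 were found. The pathway starts when stress kinases phosphorylate the translation factor eIF2. Most protein synthesis then slows, while the mRNA of the transcription factor ATF4 is translated more, through upstream open reading frames. ATF4, alone or with partners such as CHOP (the product of Ddit3), then switches on genes for amino acid supply, redox balance, mTORC1 inhibition and cell death. In liver cells the pathway is known for responding to amino acid shortage and to stress of the endoplasmic reticulum.

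The study used Hepa 1-6 cells, a mouse hepatocellular carcinoma line, and sequenced RNA recovered with an antibody to YTHDF1, a cytoplasmic reader of N6-methyladenosine in mRNA (RNA immunoprecipitation, RIP). There were 4 groups of 1 library each: RIP from cells with a guide for Usp5 (a deubiquitinase, genotype given as knockdown), the input lysate of those cells, RIP from cells with a control guide (genotype given as WT), and their input. Inputs were a part of the lysate taken before precipitation, so the RIP and input of a line share 1 lysate. No precipitation with a control antibody is among the 4 libraries. RIP over input thus does not separate binding by YTHDF1 from other recovery of RNA. The labels do not say whether the cells with either guide were clones or pools, and no drug, time or stress treatment is named. Usp5 cells and control cells, named by their guide, are referred to as the lines.

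The libraries held between 29898171 counts (Usp5 RIP) and 33941019 counts (control RIP). Levels are given as CPM (counts scaled to library size) after TMM normalisation, and they are not compared between genes because transcript lengths were not used. With 1 library per group there is no replicate check of the guide, so no p-value is given for it. A gene is called higher or lower when its ratio is at least 2-fold and its 95% counting interval excludes no difference. These intervals leave out every error but that of counting, and PCR copies of 1 molecule are counted as separate reads. Scatter between libraries was larger than counting error, at 18.4 times the binomial variance for the RIP pair and 57.7 times for the inputs. Both values are medians over genes of low to middle level, a range that Atf4, Asns and Psat1 exceed and Chac1 falls below. Each member's ratio is therefore also set beside the central 95% of ratios of all genes within 0.5 log2 units of its own mean level. The other genes of the pathway, Usp5, Ythdf1 and cell type markers were not analysed here, since the table's IDs were paired with names only for the 10 members.

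All 10 members had reads in both RIP libraries, and 10 of 10 passed the filter of a mean of 1 CPM over the libraries. Chac1 passed it through its RIP libraries alone, with 0.195 CPM in the Usp5 input and 0 reads in the control input. Of the 10 spans in the reference annotation, only that of Ddit3 overlapped other genes, Mbd6 by 77 bases and Mars1 by 71 bases at its ends. Whether counting used strand is not given in the sources used here, so reads in these overlaps may be shared or lost.

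ATF4 and its partners bind C/EBP-ATF response elements, and such elements with the letters TGATGNAA were looked for on both strands in the 250 bases before each RefSeq start site (GRCm38.p6). They were found in 4 of the members' 11 windows, those of Atf3, Chac1, Slc7a11 and Asns, and in 3.45% of all 32851 promoter windows. Because the members were picked as genes of this pathway, no enrichment is read from these shares. The cyclic AMP response element TGACGTCA was found in none of the members' 11 windows and in 1.55% of all windows. The stretches with a match are shown because they place the element in 2 genes with a RIP over input ratio above 1 in both lines, and in 2 genes with a ratio below 1. Of the former, Chac1 passed the filter through its RIP libraries alone, which fixed its sign, so no contrast is drawn from these numbers. Capitals mark the matches, each stretch is written along the gene's strand, and neither letters nor counts show binding. The Slc7a11 window (chr3:50443564-50443863, minus strand) lay inside the gene's span, which ends at 50499087, and no window was searched at that end.

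Atf3, chr1:191183416-191183463, minus strand: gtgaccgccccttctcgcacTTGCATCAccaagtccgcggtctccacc

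Chac1, chr2:119351029-119351076, plus strand: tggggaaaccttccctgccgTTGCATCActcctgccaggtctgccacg

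Slc7a11, chr3:50443633-50443699, minus strand: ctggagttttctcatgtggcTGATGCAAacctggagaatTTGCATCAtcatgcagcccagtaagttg

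Asns, chr6:7693210-7693252, minus strand: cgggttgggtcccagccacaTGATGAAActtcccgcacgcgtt

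The RIP over input ratios of the members had both signs. In each line the ratio was above 1 for 7 members (the transcription factors, the regulators and Chac1) and below 1 for 3 (the cystine transporter Slc7a11 and the enzymes Asns and Psat1). That of Ddit3 in Usp5 cells had an interval that includes no difference. In 6 members both RIP libraries lay above both inputs (32% of the 12920 genes compared did so), and in 3 members both lay below (29.9% of genes did so). In Ddit3 the groups overlapped, since the control RIP library was below the Usp5 input. In Usp5 cells 3 members were called higher in RIP than in input (15.9% of all genes) and 0 lower (13.7% of all genes). In control cells 4 were called higher (18.4% of all genes) and 0 lower (15% of all genes). Chac1 is 1 of the 7 members with ratios above 1, of the 6 with both RIP libraries above both inputs, and of those called in each line. Since it passed the filter through RIP alone, its place in these counts was fixed by the filter and its calls support nothing. At a mean of at least 5 CPM, which leaves it out, 2 of 9 members were called higher in Usp5 cells (11.1% of genes) and 3 of 9 in control cells (14.1% of genes). The median log2 ratio was then 0.14 in Usp5 and 0.72 in control cells, beside 0.47 and 0.80 with Chac1. Over all genes at the filter of 1 CPM the median was 0.02 in Usp5 and 0.03 in control cells. In each line 9 of 10 members lay inside the central 95% of like genes, the exceptions being Trib3 in Usp5 cells and Chac1 in control cells. The place of Chac1 is not informative, since its like genes passed the filter only by being uneven between libraries.

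**Figure D1:**
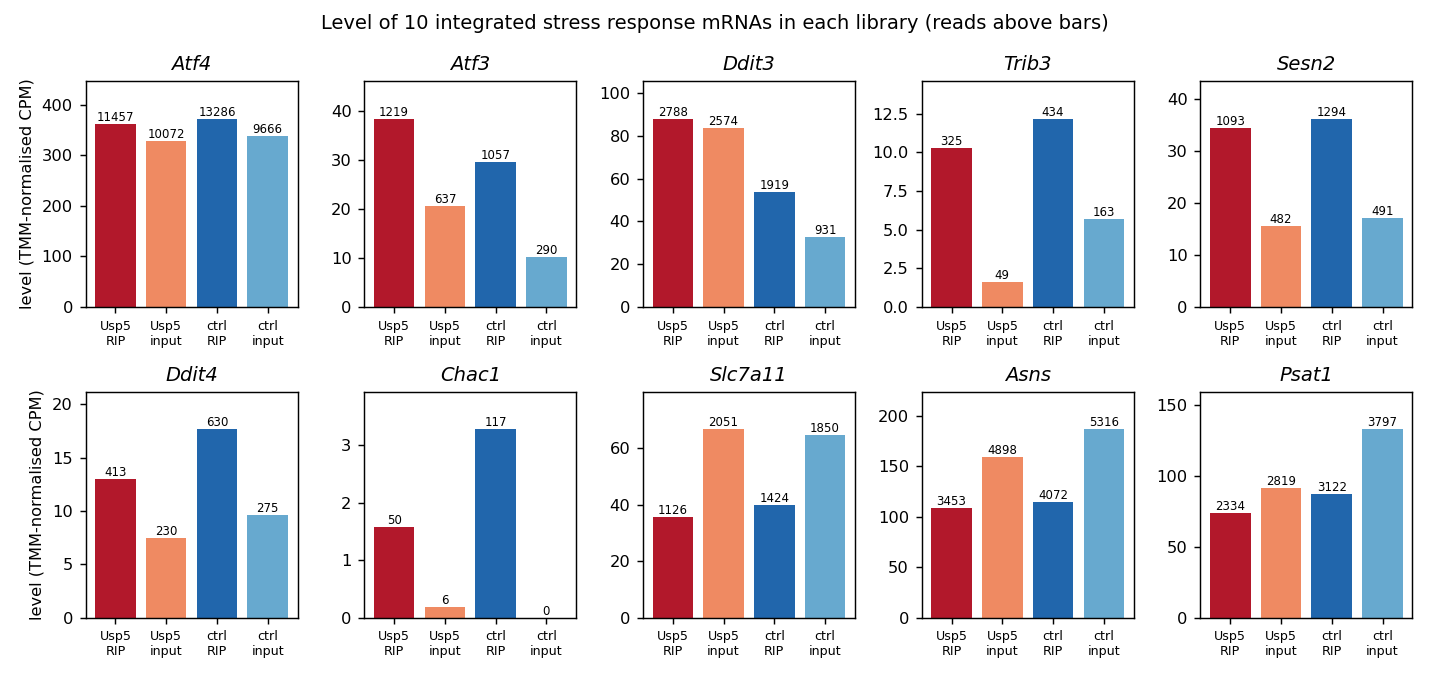
Level of each member in CPM after TMM normalisation (bars, linear axes from 0, own scale per gene) in the 4 libraries, with read counts above the bars; ctrl is the control guide and each bar is 1 library. RIP bars stand above the input bars of the same line for 7 genes and below them for Slc7a11, Asns and Psat1.

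The fraction was also tested over both lines, as RIP against input blocked by line (quasi-likelihood test in edgeR, 2 lysates, 1 residual degree of freedom). In this fit any effect of the guide on recovery counts as error. At an adjusted p under 0.05, 2 members were higher in RIP (10.2% of all genes) and 2 were lower (11.3% of all genes). Atf3 and Sesn2 were the higher ones, with log2 ratios of 1.22 and 1.11 and edgeR adjusted p-values of 0.0209 and 0.0218. Slc7a11 and Asns were the lower ones, with -0.80 and -0.63 and edgeR adjusted p-values of 0.0290 and 0.0192. The remaining 6 members missed the threshold. The ratios of the 4 called members lay inside the central 95% of like genes in each line. With library totals in place of TMM factors both lower calls were lost (edgeR adjusted p = 0.0762 for Slc7a11 and 0.0661 for Asns), and without the block that of Atf3 was lost (edgeR adjusted p = 0.0850). Over all genes, lower calls went from 1461 to 969 with library totals, and higher calls from 1321 to 1020 without the block.

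Among the transcription factors, Atf4 (ENSMUSG00000042406, chromosome 15, 80255184 to 80257545) encodes the factor on which the pathway converges. It had 11457 reads (361.5 CPM) in the Usp5 RIP and 10072 reads (327.4 CPM) in the Usp5 input, and 13286 reads (372.4 CPM) in the control RIP and 9666 reads (338.7 CPM) in the control input. Its 4 levels were thus close together, with both RIP libraries slightly above both inputs. The log2 ratio of RIP over input was 0.14 in Usp5 cells (0.10 to 0.18) and 0.14 in control cells (0.10 to 0.17). The ratio of Usp5 over control was -0.05 in inputs (-0.09 to -0.01) and -0.04 in RIP (-0.08 to -0.01), small beside the central 95% of like genes, -0.64 to 0.47 in inputs and -0.31 to 0.35 in RIP. With library totals the input value became 0.02. These are mRNA counts and say nothing of ATF4 protein.

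Atf3 (ENSMUSG00000026628, chromosome 1, 191170296 to 191183333), a stress-induced factor of the same bZIP class, had 1219 reads (38.5 CPM) in the Usp5 RIP and 637 reads (20.7 CPM) in the Usp5 input. In control cells it had 1057 reads (29.6 CPM) in RIP and 290 reads (10.2 CPM) in input. Each RIP library was above its input, and each Usp5 library was above its control counterpart. RIP over input was 0.89 on the log2 scale in Usp5 cells (0.75 to 1.03) and 1.54 in control cells (1.36 to 1.74). The guide ratio, Usp5 over control, was 1.03 in inputs (0.82 to 1.23), or 2.04-fold, and 0.38 in RIP (0.26 to 0.50). Both guide ratios lay inside the central 95% of like genes, which reached 1.24 in inputs and 0.70 in RIP.

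Ddit3 (ENSMUSG00000025408, chromosome 10, 127290793 to 127296291), whose product CHOP promotes cell death under lasting stress, stood apart from genes of like level in both fractions. It had 2788 reads (88.0 CPM) in the Usp5 RIP and 2574 reads (83.7 CPM) in the Usp5 input, against 1919 reads (53.8 CPM) in the control RIP and 931 reads (32.6 CPM) in the control input. Both Usp5 libraries were above both control libraries. The log2 ratio of Usp5 over control was 1.36 in inputs (1.25 to 1.47), a 2.56-fold difference, and 0.71 in RIP (0.63 to 0.79), a 1.64-fold difference. Of the 1816 genes of like level, the central 95% spanned -0.82 to 0.86 in inputs and -0.51 to 0.49 in RIP, so Ddit3 lay outside in both. Its RIP over input was 0.07 in Usp5 cells (-0.01 to 0.15) and 0.72 in control cells (0.61 to 0.84).

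Among the regulators, Trib3 (ENSMUSG00000032715, chromosome 2, 152337425 to 152344060) encodes a pseudokinase that is induced by ATF4 and CHOP and restrains them in turn. It had 325 reads (10.3 CPM) in the Usp5 RIP but 49 reads (1.59 CPM) in the Usp5 input, and 434 reads (12.2 CPM) in the control RIP and 163 reads (5.71 CPM) in the control input. Its RIP levels were near each other, and the Usp5 input stood lowest. Recovery, as RIP over input, was 2.67 on the log2 scale in Usp5 cells (2.25 to 3.15), just above the central 95% of like genes, which ended at 2.52, and 1.09 in control cells (0.83 to 1.36). Between the lines the ratio was -1.83 in inputs (-2.33 to -1.37) and -0.25 in RIP (-0.46 to -0.04). The input value lay inside the central 95% of 1391 like genes, -2.32 to 2.60. It rests on the 49 reads of 1 library, as does RIP over input in Usp5 cells. With widened intervals RIP over input in Usp5 cells was 2.06 (-0.46 to 4.58) and was not called.

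Sesn2 (ENSMUSG00000028893, chromosome 4, 132492804 to 132510456) encodes a leucine sensor that inhibits mTORC1. It had 1093 reads (34.5 CPM) in the Usp5 RIP and 482 reads (15.7 CPM) in the Usp5 input, and 1294 reads (36.3 CPM) in the control RIP and 491 reads (17.2 CPM) in the control input. The lines were alike in both fractions, and RIP was about as far above input in each. The log2 ratio of RIP over input was 1.14 in Usp5 cells (0.98 to 1.30) and 1.08 in control cells (0.93 to 1.23). Usp5 over control was -0.14 in inputs (-0.32 to 0.05) and -0.07 in RIP (-0.19 to 0.04), intervals that include no difference. With intervals widened by the scatter between libraries, Sesn2 was the only member still called in RIP over input in both lines. Its lower bounds were 0.05 in Usp5 and 0.00365 in control cells. Such higher calls made up 4.06% of all genes in Usp5 and 5.26% in control cells, and the share called in both was not computed. Both Sesn2 ratios lay inside the central 95% of like genes, which reached 1.56 in Usp5 and 1.65 in control cells.

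Ddit4 (ENSMUSG00000020108, chromosome 10, 59949675 to 59951770) encodes REDD1, which inhibits mTORC1 through the TSC complex. It had 413 reads (13.0 CPM) in the Usp5 RIP and 230 reads (7.48 CPM) in the Usp5 input, and 630 reads (17.7 CPM) in the control RIP and 275 reads (9.64 CPM) in the control input. RIP over input was similar in the lines, at 0.80 on the log2 scale in Usp5 cells (0.57 to 1.04) and 0.87 in control cells (0.67 to 1.08). The guide ratio was -0.37 in inputs (-0.63 to -0.11) and -0.44 in RIP (-0.62 to -0.26). None of these ratios reached 2-fold, and all 4 lay within the central 95% of like genes.

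**Figure D2:**
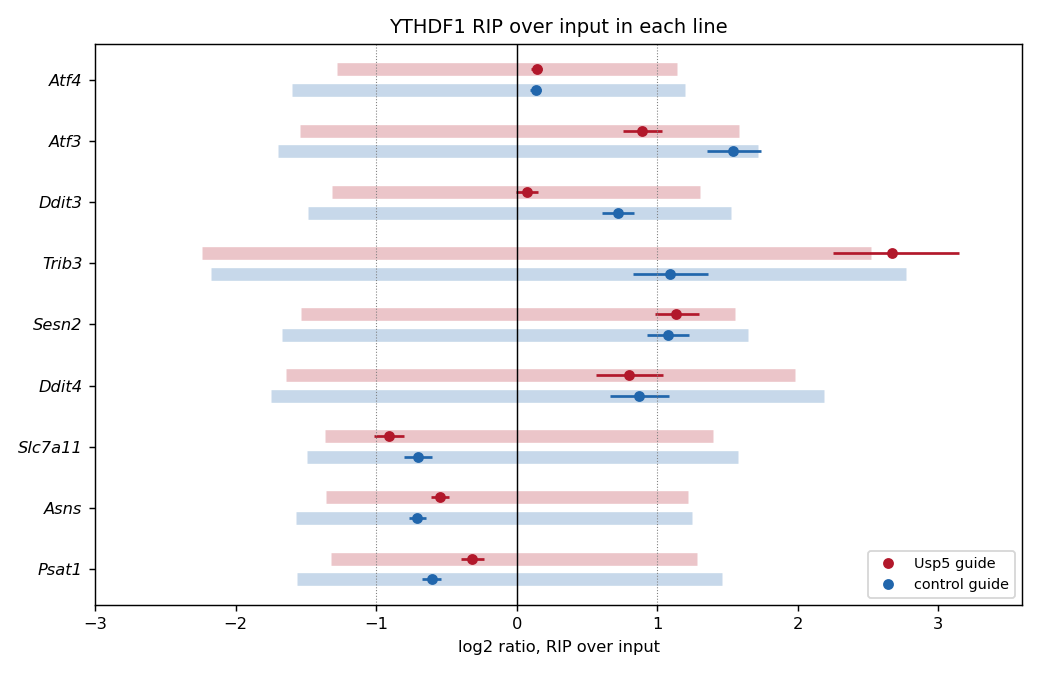
Log2 ratio of RIP over input (x axis) for 9 members in Usp5 (red) and control cells (blue); points are the ratios, thin lines 95% counting intervals, pale bars the central 95% of ratios of genes of like level, and dotted lines 2-fold. Chac1 is left out for its 0 reads in the control input. Slc7a11, Asns and Psat1 lie left of 0 in both lines, and the other 6 lie right of it.

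The 2 glutathione genes had RIP over input ratios of opposite sign, though that of Chac1 was fixed by the filter. Chac1 (ENSMUSG00000027313, chromosome 2, 119351242 to 119354326) encodes an enzyme that breaks down glutathione. It had 50 reads (1.58 CPM) in the Usp5 RIP and 6 reads (0.195 CPM) in the Usp5 input, and 117 reads (3.28 CPM) in the control RIP and 0 reads in the control input, which allows up to 3 counts or 0.105 CPM. Both RIP libraries were above both inputs. RIP over input was 2.92 on the log2 scale in Usp5 cells (1.79 to 4.53), and in control cells its counting interval began at 4.64, with no upper end. Its mean log2 level was -1.46, and genes near it passed the filter of 1 CPM only by being uneven between libraries. Their central 95%, -7.90 to 7.60 in Usp5 cells, is thus wide by selection and does not measure scatter at low level. Usp5 over control was -1.05 in RIP (-1.56 to -0.57). In inputs, with 6 reads against 0, its counting interval began at 0.13, so no 2-fold difference is shown.

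Slc7a11 (ENSMUSG00000027737, chromosome 3, 50364936 to 50499087) encodes the transport subunit of the cystine-glutamate exchanger xCT, which supplies cystine for glutathione synthesis. It had 1126 reads (35.5 CPM) in the Usp5 RIP and 2051 reads (66.7 CPM) in the Usp5 input, and 1424 reads (39.9 CPM) in the control RIP and 1850 reads (64.8 CPM) in the control input. The inputs were alike, and both RIP libraries were well below them. The RIP over input ratio was -0.91 on the log2 scale in Usp5 cells (-1.01 to -0.80) and -0.70 in control cells (-0.80 to -0.60). Between Usp5 and control cells it was 0.04 in inputs (-0.05 to 0.13) and -0.17 in RIP (-0.28 to -0.05).

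For the amino acid enzymes the ratios were all below 1, between the fractions as between the lines, and none reached 2-fold. Asns (ENSMUSG00000029752, chromosome 6, 7675165 to 7693209) makes asparagine from aspartate and is a standard ATF4 target. It had 3453 reads (109.0 CPM) in the Usp5 RIP and 4898 reads (159.2 CPM) in the Usp5 input, and 4072 reads (114.1 CPM) in the control RIP and 5316 reads (186.3 CPM) in the control input. RIP over input was -0.55 on the log2 scale in Usp5 cells (-0.61 to -0.48) and -0.71 in control cells (-0.77 to -0.65). Usp5 over control was -0.23 in inputs (-0.28 to -0.17) and -0.07 in RIP (-0.13 to -0.00125), both inside the central 95% of like genes.

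Psat1 (ENSMUSG00000024640, chromosome 19, 15905123 to 15925059), an aminotransferase of serine synthesis, had 2334 reads (73.7 CPM) in the Usp5 RIP and 2819 reads (91.6 CPM) in the Usp5 input. In control cells it had 3122 reads (87.5 CPM) in RIP and 3797 reads (133.1 CPM) in input. The control input stood highest, and the Usp5 library was the lower one in each fraction. The RIP over input ratio was -0.31 on the log2 scale in Usp5 cells (-0.39 to -0.24) and -0.60 in control cells (-0.67 to -0.54). The guide ratio, at -0.54 in inputs (-0.61 to -0.47) and -0.25 in RIP (-0.33 to -0.17), was negative in both fractions. Like genes had a central 95% of -0.78 to 0.70 in inputs and -0.45 to 0.42 in RIP, so both values lay inside it.

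**Figure D3:**
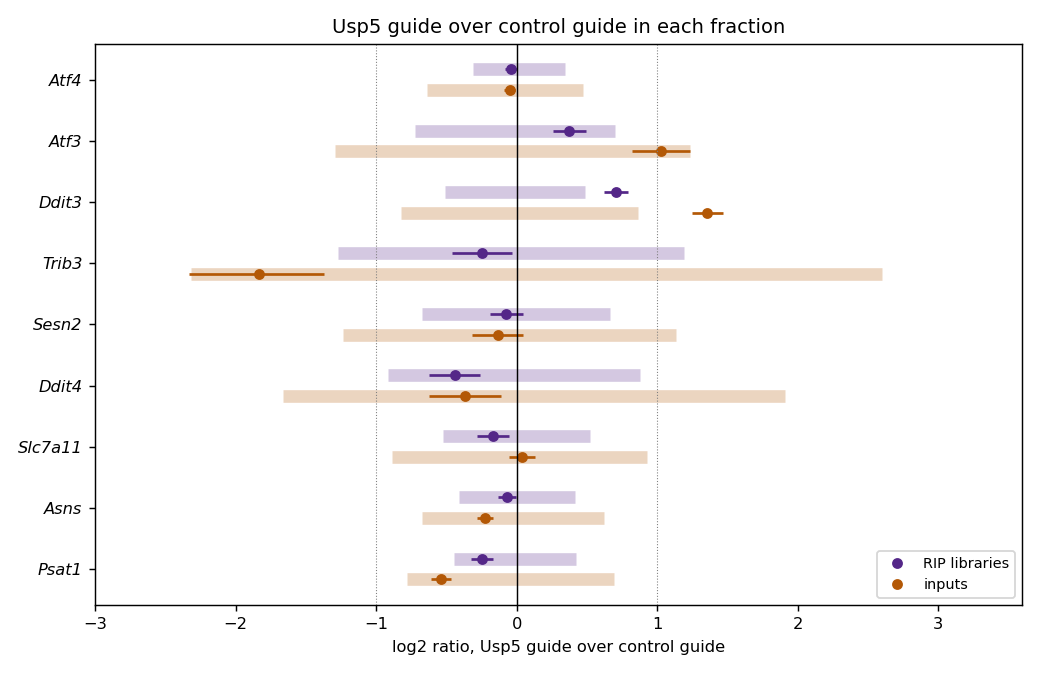
Log2 ratio of Usp5 guide over control guide (x axis) for 9 members in RIP libraries (purple) and inputs (orange); points, thin lines, pale bars and dotted lines are as in the plot of RIP over input, and Chac1 is again left out. Ddit3 is the only gene drawn whose points lie outside the pale bars in both fractions.

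The guide ratios of the members went both ways. In inputs 3 members were called higher in Usp5 cells, Atf3, Ddit3 and Chac1 (12.4% of all genes were), and 1 was called lower, Trib3 (12.1% of all genes). The call of Chac1 there rests on counts added to 0 reads, and it was kept with 2 added counts (log2 ratio 1.96). With 3 counts allowed in the control input, its ratio was at least 1.86-fold, so 2-fold is not shown. At a mean of at least 5 CPM, without Chac1, 2 were called higher (6.63% of genes) and 1 lower (6.35% of genes). In RIP libraries 0 were called higher (4.56% of all genes) and 1 was called lower, Chac1 (4.64% of all genes). The median log2 ratio of the members was -0.09 in inputs and -0.12 in RIP, beside -0.01 over all genes in each fraction. Of the 10 members, 9 lay within the central 95% of like genes in inputs and 9 in RIP, with Ddit3 as the exception both times. For Chac1 that place is not informative, given how its like genes passed the filter. With widened intervals Ddit3 was the 1 member still called in inputs, at 1.33 (0.52 to 2.14), where 0.751% of all genes were called higher and 0.944% lower. In RIP its widened interval, 0.35 to 1.07, also excluded no difference, but the ratio was under 2-fold.

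**Figure D4:**
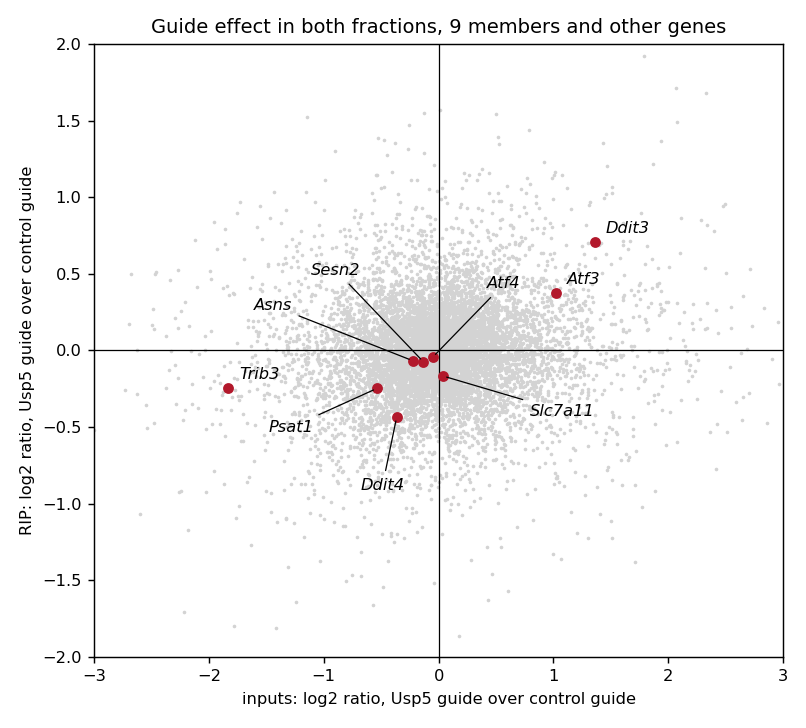
Log2 ratio of Usp5 over control in RIP (y axis) against that in inputs (x axis) for 9 members (red, named) and other genes with a mean log2 CPM of at least 2.5 (grey; 9433 genes drawn, members included, 24 of them outside the axes). The axes share no library but the RIP and input of a line share a lysate. Ddit3 and Atf3 lie at the upper right, and Trib3 lies far to the left with a RIP value near 0.

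The change with the guide of recovery in the YTHDF1 RIP was described by the ratio of the enrichments, Usp5 over control. It was called higher for 1 member, Trib3 (13.3% of all genes), and lower for 1 member, Chac1 (13.8% of all genes). The value of Chac1 divides by 0 reads in the control input, and its call was lost with 2 added counts. For Trib3 it was 1.59 on the log2 scale (1.08 to 2.09), with RIP levels of 10.3 CPM in Usp5 and 12.2 CPM in control cells. The input levels were 1.59 CPM (49 reads) in Usp5 and 5.71 CPM in control cells. Atf3 and Ddit3 each had a value of -0.65 (-0.88 to -0.42 for Atf3 and -0.79 to -0.51 for Ddit3). In both, the Usp5 input exceeded the control input by more than the Usp5 RIP exceeded the control RIP. Atf4, Sesn2, Ddit4, Asns and Psat1 lay between -0.07 (Ddit4) and 0.29 (Psat1), and Slc7a11 was at -0.21 (-0.35 to -0.06). All 10 lay within the central 95% of like genes, a place that is not informative for Chac1. With widened intervals 0 of 10 were called (0.983% of all genes were called higher and 0.867% lower).

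The 4 log2 ratios (RIP over input in each line, Usp5 over control in each fraction) were also used to find genes with a pattern like the members' median pattern. That median includes Chac1, whose RIP over input sign was fixed by the filter. The median RIP over input was 0.47 in Usp5 and 0.80 in control cells, beside 0.14 and 0.72 without Chac1. The search was not repeated without Chac1, so nothing about the members is read from the genes found. Among 5239 other genes averaging 32 CPM or more, the nearest by Euclidean distance were ENSMUSG00000028469 (0.150) and ENSMUSG00000032316 (0.161), which the table does not pair with names. The members themselves lay farther from the median pattern, from 0.54 (Ddit4) to 8.30 (Chac1), so the median describes few of them.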

How the data were processed

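The deposited table holds raw read counts per Ensembl gene ID, 1 column per library. HISAT2 2.1.0, featureCounts 1.6.3 and the mm10 mouse build are named per the submitters' processing notes. Not given in the sources used here are the annotation release and how strand, multiple matches and duplicates were treated. Columns were matched to samples by the short name in the labels, and 0 sample columns were left over. The reference gene table (GRCm38.p6, the assembly of mm10) paired 0 of the IDs with symbols. The members' names came with the list of IDs, and the other gene lists and markers written down could not be matched.

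Counts were normalised with TMM (edgeR 4.0.16, R 4.3.3), with factors of 1.06 (Usp5 RIP), 0.969 (Usp5 input), 1.05 (control RIP) and 0.926 (control input). The 12920 genes averaging 1 CPM or more were compared. Log2 ratios carry 0.5 added counts. Counting intervals apply the Clopper-Pearson method to each split of reads, and for the ratio of enrichments come from summed reciprocal counts. Widened intervals divide counts by the scatter over binomial variance measured between the lines within each fraction, which includes any change with the guide. For RIP over input each library was divided by the value of its own fraction, and no scatter was measured between RIP and input. The quasi-likelihood test was fitted to all genes compared, with Benjamini-Hochberg adjustment over them. DESeq2 1.42.0 was an alternative. The code was tested on simulated data with counting error only, so the test says nothing of how the calls behave under the larger scatter of these libraries. The members and lists were chosen with earlier results of these data known, and the comparison with genes of like level was added after the data were seen. Single genes named are the members, the nearest genes by the distance above, and the overlapping neighbours of Ddit3. Promoter sequences are RefSeq's (GRCm38.p6) and matched all 10 members by symbol, Psat1 with 2 windows.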

Additional observations from a re-analysis of the deposited data

Results flagged for a closer look

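Chac1 was singled out because its Usp5 over control ratio had opposite signs in the fractions, with each counting interval excluding no difference. The log2 ratio was 3.65 in inputs, a value that depends on the 0.5 counts added to 0 reads in the control input and is no bound, and -1.05 in RIP. The difference between fractions was not tested. The reads were 6 in the Usp5 input and 0 in the control input, and 50 in the Usp5 RIP and 117 in the control RIP. Genes of like level had a central 95% of -8.11 to 8.04 in inputs and -5.67 to 5.22 in RIP. These genes passed the filter only by being uneven between libraries, so the ranges do not measure scatter at low level.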

How the results depend on the processing

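Directions of RIP over input were kept for all 10 members in both lines under DESeq2 size factors, upper-quartile factors, library totals, 2 added counts and both other filters (a mean of 5 CPM leaves out Chac1). Library totals moved the median over all genes to 0.15 in Usp5 and 0.21 in control cells, and Atf3 in Usp5 cells and Ddit4 in control cells then passed 2-fold (1.02 and 1.06). Widened intervals left 1 member called higher in RIP over input in Usp5 cells (4.06% of all genes) and 2 in control cells (5.26%), 1 higher (0.751%) and 0 lower (0.944%) in Usp5 over control inputs, 0 lower in RIP (0.565%), and 0 higher and 0 lower in the ratio of enrichments (0.983% and 0.867%). The filter at 5 CPM left 0 lower in RIP and in the ratio of enrichments, since Chac1 was not tested, and 2 added counts also left 0 lower in that ratio. In the test over both lines, library totals left 0 members lower, and lower calls among the 12920 genes went from 1461 to 969. With the block by line left out, 1 member was higher, and higher calls over all genes went from 1321 to 1020. The paired fit rests on the shared lysate of each RIP and input. DESeq2 added Chac1 (DESeq2 adjusted p = 0.0403) and the 5 CPM filter added Trib3 (edgeR adjusted p = 0.0396). Over all genes, 1281 of 12920 were higher with DESeq2 and 1667 of 9923 with the 5 CPM filter, beside 1321 of 12920 in the main fit. Chac1 passed the filter of 1 CPM through RIP alone, so its call supports nothing. The cause of these shifts was not tested. Depth limits Chac1 and Trib3 in inputs, and 1 library per group limits every guide comparison.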
